A study of Saccharomyces cerevisiae W303 with 4 samples.

Results

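Full-length Ty retrotransposons were examined for peaks of the chaperone Zuo1 in budding yeast. They are the mobile genetic elements of the Saccharomyces cerevisiae R64 annotation on nuclear chromosomes, and 50 such elements were found, 31 of family Ty1, 13 of Ty2, 2 of Ty3, 3 of Ty4 and 1 of Ty5. Together they span 291512 bp, or 2.41% of the 12071326 bp of the nuclear chromosomes. The data came from chromatin immunoprecipitation with sequencing (ChIP-seq) in asynchronous cultures of strain W303 that carried Zuo1 with a Myc tag, fixed with formaldehyde, and the labels name no drug. DNA from 2 Myc immunoprecipitations (IP) was set against 2 libraries of input DNA of the same tagged strain, and the study asked at which sites Zuo1 sits on chromosomes, with G-quadruplex (G4) motifs as its main interest. The deposited result is 1 list of 1594 peaks, 1543 of them on nuclear chromosomes. It pools the libraries and holds no value or depth of a single library, so no spread between replicates and no test between groups is given. The reads themselves were not analysed here. An untagged strain was not analysed here.

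Ty elements are retrotransposons with long terminal repeats (LTRs): they are transcribed by RNA polymerase II from one LTR to the other, and the RNA is copied into DNA that integrates elsewhere. Between the LTRs lie gag, which encodes the coat of the virus-like particle, and pol, which encodes protease, integrase and reverse transcriptase. Ty1, Ty2, Ty4 and Ty5 are relatives of copia elements and Ty3 of gypsy elements. Ty1 to Ty4 integrate next to genes transcribed by RNA polymerase III, mostly tRNA genes, whereas Ty5 goes to silent chromatin. Zuo1 is a J-domain protein that works with Hsp70 partners at the ribosome.

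The positions below are those of the S288C reference, and the elements of W303 are not all at the same places. Many copies of a family are also nearly identical, so that a read of 64 bases often matches several of them. The sequences at the places where summits recurred most are therefore shown first. Each is given as 61 bases, read 5′ to 3′ along the element, from the RefSeq assembly R64. The Ty2 line and the Ty1 summit lines come from 1 copy of the family. They are centred on the median position of the summits that its copies had there. The first line is the Ty2 stretch under which every Ty2 copy had a summit, and the line after it is the Ty1 sequence aligned with it. Capitals in these lines mark the 6 alignment columns at which both differ.
Ty2 YBLWTy2-1, chrII:34062-34122, plus strand: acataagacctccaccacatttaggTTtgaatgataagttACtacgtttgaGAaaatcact
Ty1 YDRCTy1-1, chrIV:646984-647044, minus strand: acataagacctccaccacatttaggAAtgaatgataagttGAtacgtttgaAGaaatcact
The next lines give the places of the most recurrent Ty1 summits, in the 3′ LTR and in pol, and the pol summit of each Ty3 copy. Capitals mark the 11 central bases. The printed copy YDRCTy1-1 itself had no summit in its 3′ LTR, and its nearest pol summit lay at position 4557. Each Ty3 line is centred on the summit of its own copy.
Ty1 3′ LTR, YDRCTy1-1, chrIV:645655-645715, minus strand: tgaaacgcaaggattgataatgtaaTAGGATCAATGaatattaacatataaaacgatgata
Ty1 pol, YDRCTy1-1, chrIV:646857-646917, minus strand: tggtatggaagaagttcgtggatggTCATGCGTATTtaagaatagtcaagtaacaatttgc
Ty3 pol, YGRWTy3-1, chrVII:709034-709094, plus strand: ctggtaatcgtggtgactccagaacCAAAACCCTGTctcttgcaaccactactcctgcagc
Ty3 pol, YILWTy3-1, chrIX:207112-207172, plus strand: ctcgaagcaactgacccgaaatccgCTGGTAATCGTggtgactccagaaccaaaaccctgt

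Peaks lay in every Ty1, Ty2 and Ty3 element and in no Ty4 or Ty5 element. Of the 50 elements, 46 (92%) shared at least 1 bp with a peak, whereas 49.1% of the 2005 nuclear tiles of 6000 bp, about the length of an element, did. The same 46 elements held a summit, against 46.7% of tiles. With peaks of 2-fold or more the count was again 46 elements, against 43.3% of tiles. Peaks of 3-fold or more reached 2 elements, against 20.4% of tiles, so that the elements stood above the tiles in the presence of a peak and below them in strong peaks. In all, 178 peaks overlapped an element and 162 of them had the summit inside one, which was 10.5% of all nuclear peaks. Peaks covered 58.0% of the element bases and 7.17% of the other nuclear bases, against 8.39% of all nuclear bases, and 16.7% of all nuclear bases under peaks lay in elements.

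**Figure D1:**
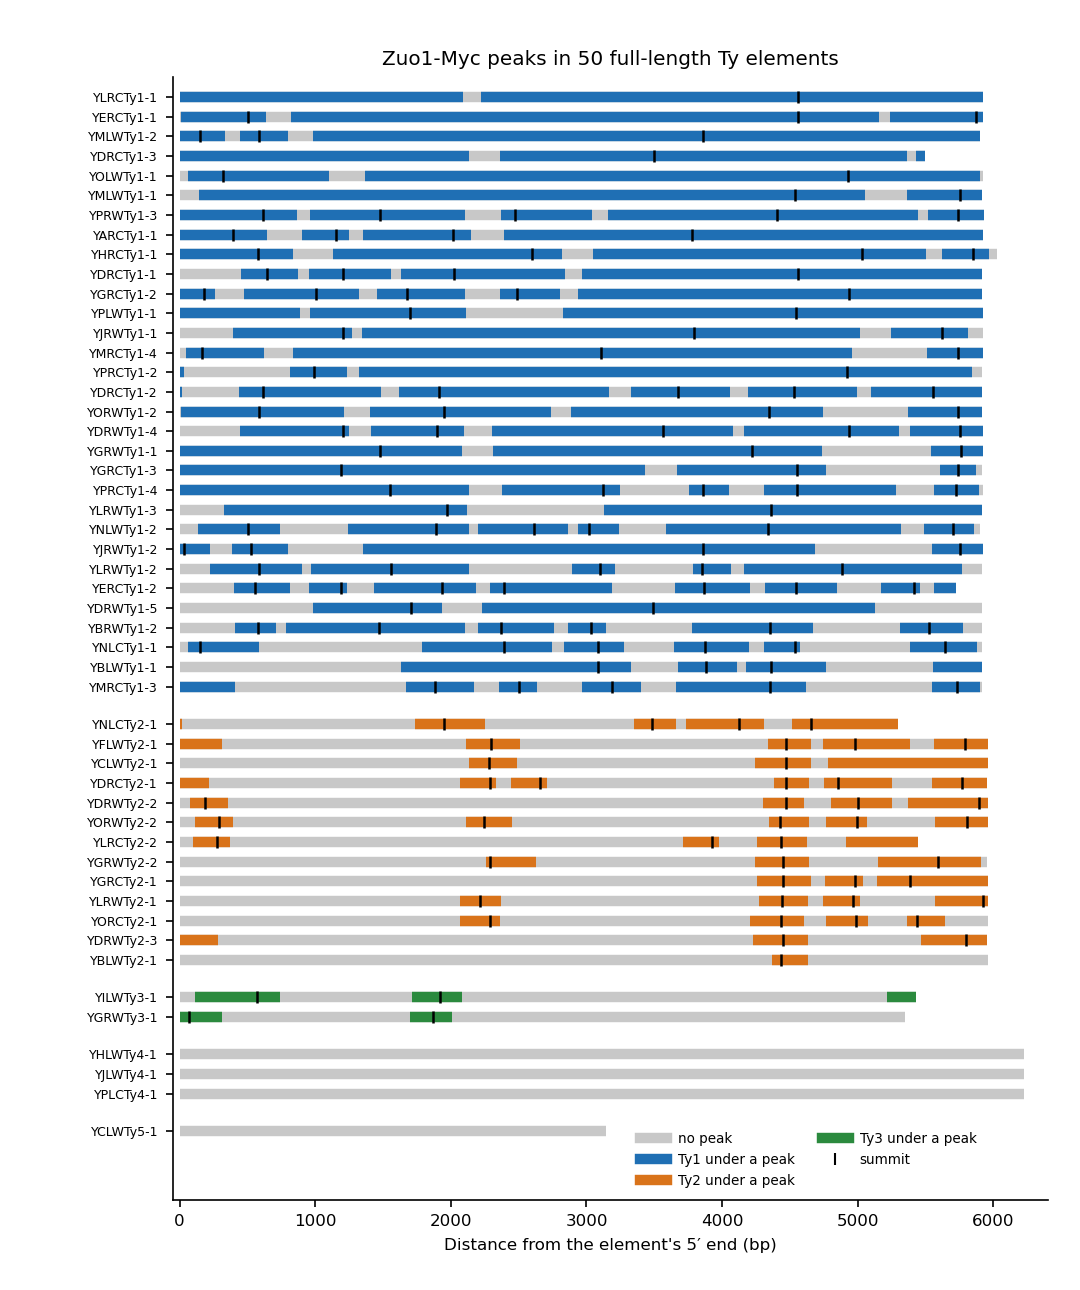
Each line is 1 of the 50 full-length Ty elements, drawn from its 5′ end in bp and ordered within a family by covered share. Coloured stretches are under a Zuo1-Myc peak, grey ones are not, and black ticks are summits. Ty1 copies were covered over 49.5% to 97.7% of their length, Ty2 copies over 4.53% to 41.4%, and the 3 Ty4 copies and the Ty5 copy over none.

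The families differed in how much of the element was under peaks. In Ty1 the 31 copies held 123 peaks, between 2 and 8 in a copy with a median of 4, and 80.6% of their bases were covered. In Ty2 the 13 copies held 51 peaks, between 1 and 6 with the same median of 4, yet only 26.0% of their bases were covered. The median peak with its summit inside was 803.5 bp long in Ty1 and 365 bp in Ty2, and the longest were 4946 bp and 1077 bp. Long peaks thus made up the difference between these families, and 22 of the 63 nuclear peaks of 2000 bp or more had the summit in an element. The 2 Ty3 copies held 5 peaks over 17.0% of their bases. YHLWTy4-1, YJLWTy4-1, YPLCTy4-1 and YCLWTy5-1 had no peak at all, and as a family of 3 and a family of 1 copy they allow no statement on frequency.

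The fold enrichment, for which MACS divides the IP pileup at a summit by its local background, was low in the elements. Over the 162 summits inside elements it ran between 1.56 and 3.31 with a median of 2.09, and over the 1365 nuclear peaks away from elements between 1.58 and 14.06 with a median of 2.52. At least 2-fold were 61.7% of the element summits and 81.4% of the other peaks, and at least 3-fold were 0.617% of the element summits and 33.8% of the other peaks. The median was 2.15 over the 114 Ty1 summits, 2.01 over the 44 Ty2 summits and 2.39 over the 4 Ty3 summits, and these ranges overlapped. The numbers of fragments behind a fold could be recovered from the fold and its p-value. IP fragments at the summit had a median of 81 in elements and 94 at other nuclear peaks, against a local background of 38.5 in elements and 36.3 at other peaks. The lower fold thus went with fewer IP fragments and a slightly higher background, and the background in elements lay between 32.2 and 43.0 fragments. At nuclear peaks the highest number of IP fragments was 522, which recurred at the same background, and in elements it was 140. The reported peak-calling command gives no setting for duplicate reads. How far their treatment limited fold, IP fragments and background in repeated sequence was not tested.

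**Figure D2:**
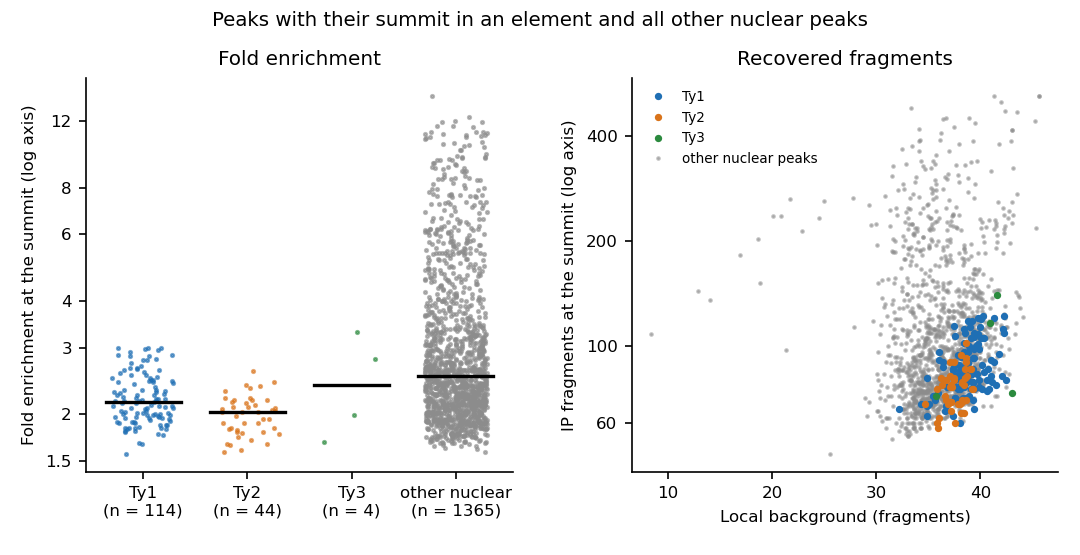
Left, fold enrichment at the summit on a log axis for the 114 Ty1, 44 Ty2 and 4 Ty3 summits and for the 1365 nuclear peaks that touch no element, with a point per peak and a line at the median. Right, IP fragments at the summit on a log axis against local background for the same peaks. Element summits lie at 3.31-fold or less, in the lower part of the other peaks.

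The strongest summit in an element was in Ty3, and the next strongest were all in the pol gene of Ty1. YILWTy3-1 on chromosome IX reached 3.31-fold with 140 IP fragments over a background of 41.6. The other 9 of the 10 elements with the highest summits were Ty1 copies between 2.85-fold and 2.99-fold: YARCTy1-1, YMLWTy1-2, YGRCTy1-2, YOLWTy1-1, YPRWTy1-3, YHRCTy1-1, YLRWTy1-3, YERCTy1-1 and YDRCTy1-1. All 10 summits lay in pol, and those in Ty1 between positions 3772 and 4935 of the reference copy YDRCTy1-1. The values in Ty1 are close to each other: YARCTy1-1 had 114 IP fragments at its summit and YMLWTy1-2 had 118, with a background of 37.4 and 38.8. The peak with the summit in YMLWTy1-2 was also the longest at any element, at 4946 bp.

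YERCTy1-2 on chromosome V held the most peaks, 8. Its 7 inner summits lay at 555 and 1187 bp from the 5′ end in gag and at 1933, 2390, 3864, 4542 and 5413 bp in pol. They ran between 1.56-fold and 2.5-fold, the highest at 4542 bp. The last peak had its summit outside the element, in the tRNA gene YNCE0028C, at 2.44-fold. Peaks in this copy were thus spread over gag and pol, with no summit in either LTR, and its summit at 5413 bp was the lowest of all 162.

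Summits outside an element that still reached into it were mostly at tRNA genes. Of the 16 peaks that overlapped an element but had the summit in none, 12 had a tRNA gene within 100 bp of the summit. Of the 162 peaks with the summit inside, 1 did, in the 5′ LTR of YGRWTy3-1. The share among all nuclear peaks is not given here, and 38 of the 50 elements lay within 1 kb of a tRNA gene. The strongest of the 16 reached 8.70-fold, with 381 IP fragments over a background of 42.9, and overlapped YLRCTy1-1 on chromosome XII. Its summit lay 217 bp before the 5′ end of that element, in RDN5-4, a gene for 5S ribosomal RNA, and it is 1 of the 2 peaks of at least 3-fold at elements. The summit inside YLRCTy1-1 was 2.62-fold, within the range of the other Ty1 copies. A tRNA gene lay within 1 kb of 24 of 31 Ty1, 9 of 13 Ty2, 2 of 2 Ty3, 3 of 3 Ty4 and 0 of 1 Ty5 elements. The 3 Ty4 copies, at 168, 160 and 926 bp from such a gene, had no peak, and the 12 elements with none within 1 kb had one in 11 cases, with the Ty5 copy as the exception. Genes for tRNA themselves carried a peak in 208 of 275 cases (75.6%).

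Within the elements, summits were found in pol most often. Of the 162 summits, 105 lay in pol, 27 in gag, 9 in the 5′ LTR and 21 in the 3′ LTR. Over Ty1 to Ty3, summits per kb were 0.581 in pol, 0.464 in gag, 0.598 in the 5′ LTR and 1.42 in the 3′ LTR. Pol thus led by its length and the 3′ LTR by density, as in Ty1 and Ty2 alone. In Ty3 the 3′ LTR held 0 summits and the 5′ LTR 1. In Ty1 alone, gag held 0.652 and pol 0.558 summits per kb, and in Ty2 gag held 0 and pol 0.680. The summit in the LTR shared by YJRWTy1-1 and YJRWTy1-2 was counted once, as 3′ LTR. All 46 elements with a peak had a summit in pol. The gag gene had a summit in 20 of 31 Ty1 copies and in 0 of 13 Ty2 copies. Of the bases, 75.9% of gag and 83.2% of pol were under peaks in Ty1, and 0.850% of gag and 28.5% of pol in Ty2.

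**Figure D3:**
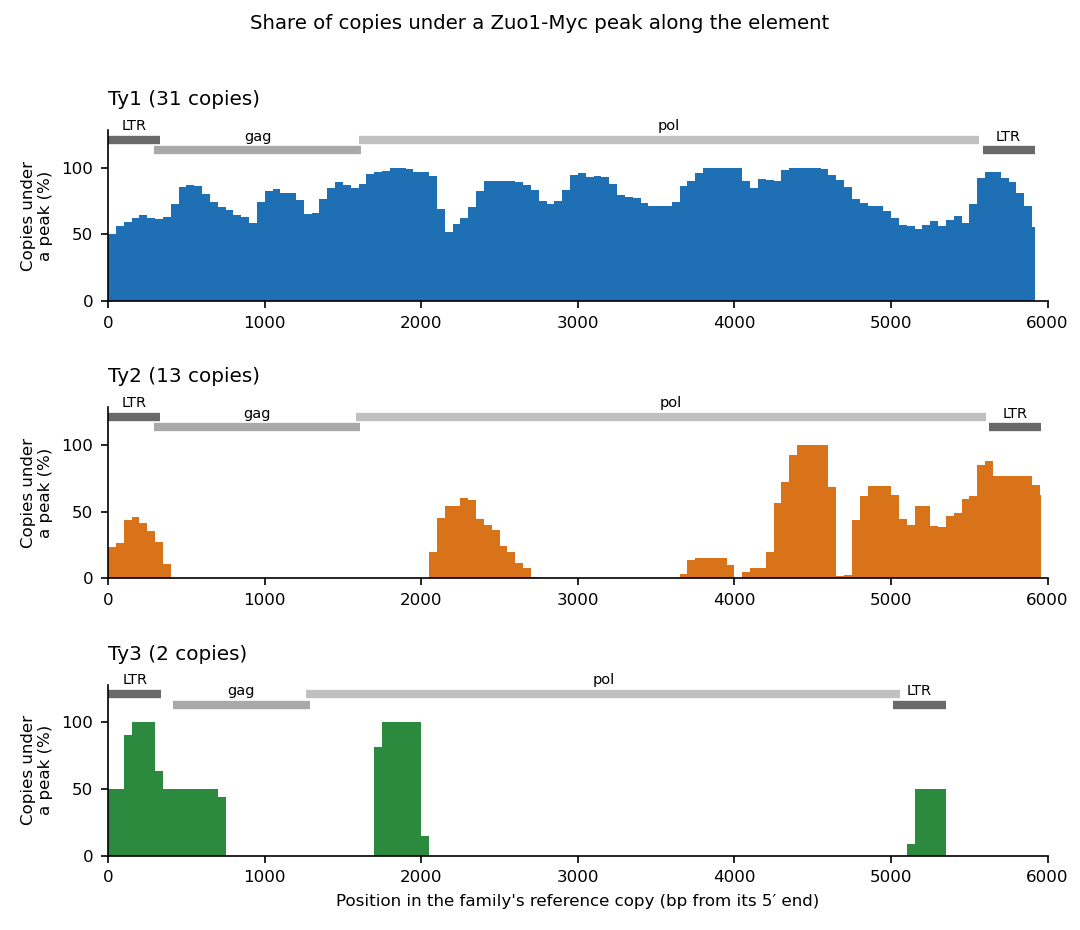
Percent of the copies of a family that are under a peak, in bins of 50 bp along the reference copy of the family (YDRCTy1-1, YBLWTy2-1, YGRWTy3-1), with the LTRs, gag and pol drawn above, where a copy that lacks a base counts as not covered. In Ty1 all 31 copies are covered at 3 places in pol, in Ty2 all 13 at 1 place, and a stretch of 1672 bp over gag and the start of pol is covered in no Ty2 copy.

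Positions were compared between copies by aligning each family to its reference copy. In Ty1 every base was under a peak in some copy, with a median of 26 of 31 copies per base. All 31 copies were covered at positions 1793 to 1935, 3786 to 4046 and 4314 to 4579, all in pol. Among the bases that every copy holds, the fewest copies, 15 of 31, were covered at positions 1 to 13 and 35 to 49 in the 5′ LTR and at 2185 to 2202 in pol. In Ty2, 47.1% of the bases were covered in no copy, the longest such run being positions 393 to 2064. All 13 Ty2 copies were covered at positions 4383 to 4601 in pol. Aligned to Ty1, these 219 bases are positions 4340 to 4558, so that 1 unbroken stretch of pol was under a peak in all 44 copies of both families.

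The Ty2 summit at that place recurred in every copy. All 13 summits lay between positions 4426 and 4474, with an SD of 16.2 bp, and the fold was between 1.79 in YDRCTy2-1 and 2.60 in YGRCTy2-1 with a median of 2.18. The median window of 200 bp in Ty2 held a summit in 0 copies. In YBLWTy2-1 this was the only peak, 270 bp long, with 81 IP fragments over a background of 37.5. Other recurrent windows in Ty2 were at 2156 to 2355 and at 4830 to 5029, each in 8 of 13 copies, and at 5744 to 5943 in the 3′ LTR in 6 of 13. None of the 13 summits held a word of 64 bases that occurs once in the reference, and among the copies the 61 bases printed above came in 2 forms, with the printed form in 6 copies and the other in 7. The 13 summits are therefore not 13 independent observations, because copies share their sequence and may share their reads.

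Ty1 summits were less fixed in place. The most recurrent window of 200 bp, positions 5591 to 5790 in the 3′ LTR, held a summit in 14 of 31 copies, with folds between 1.66 and 2.53. The window at 4352 to 4551 in pol held one in 13 copies, with folds between 2.02 and 2.96, and the window at 474 to 673 in gag in 12 copies, with folds between 1.83 and 2.31. The median window held a summit in 3 copies. Of these 3 windows, the one in the 3′ LTR is 99.0% identical between the Ty1 and Ty2 reference copies and held a summit in 4 of 13 Ty2 copies. The one in pol is 86.5% identical and held a summit in 13 of 13. The one in gag is 80% identical and held a summit in 0 of 13. In the whole 3′ LTR of Ty2, 6 copies had a summit and 12 had bases under a peak, so the count of 4 depends on the window. The part of sequence identity in the sharing of summits was not tested. Conversely, the Ty2 window at 4351 to 4550 corresponds to Ty1 positions 4308 to 4507, at 82.0% identity, and 7 of 31 Ty1 copies had a summit there.

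The gag gene of Ty1 split the copies by sequence. In 28 copies gag was between 98.7% and 100% identical to that of the reference copy, and peaks covered between 49.3% and 100% of it, with a median of 84.2%. In the other 3 copies it was 86.0% (YBLWTy1-1), 85.8% (YMRCTy1-3) and 91.1% (YNLCTy1-1) identical, and peaks covered 0%, 6.01% and 19.9% of it. The cover of gag in these 3 copies does not overlap that in the 28. The same 3 copies were the least covered of all Ty1 elements over their whole length, at 52.1%, 49.5% and 54.7%, against 64.4% to 97.7%, while their pol was covered at 55.2% to 69.1%, against 62.6% to 100%. The median 64-base word in gag occurred 2 times in the genome in each of the 3 copies and between 26 and 28 times in the 28 copies, and its part in the cover was not tested. The split at 95% identity was chosen after these values were seen. In Ty2, whose gag is 65.5% identical to that of Ty1, cover of gag was between 0% and 4.70% in the 13 copies.

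**Figure D4:**
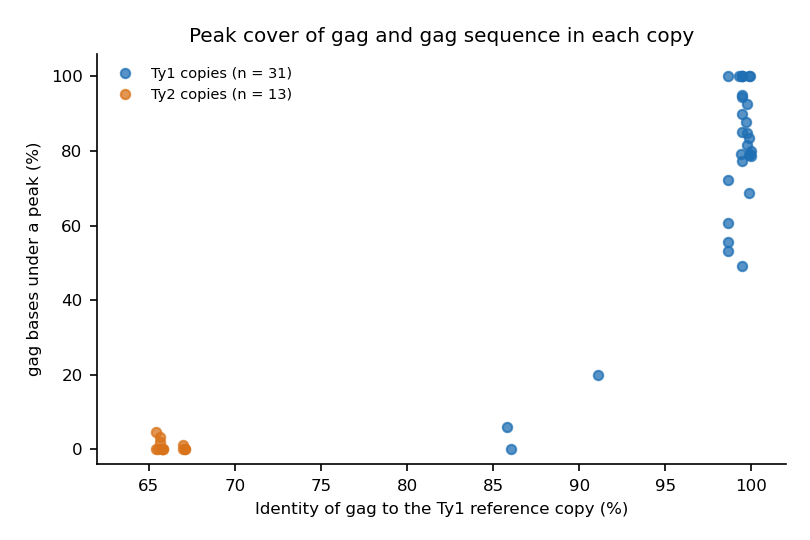
Percent of gag bases under a peak against the identity of gag to the Ty1 reference copy, with a point for each of 31 Ty1 and 13 Ty2 copies. The 28 Ty1 copies with a gag of 98.7% to 100% identity have 49.3% or more of it under peaks, and all other copies have 19.9% or less.

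The LTRs at both ends of a copy were not covered alike, although they are nearly the same sequence. In 30 Ty1 copies with both LTRs of at least 200 bp, the median identity of the pair was 99.7%, and the 3′ LTR was covered further than the 5′ LTR in 18, less far in 5 and equally in 7. The median cover was 100% in the 3′ LTR and 81.0% in the 5′ LTR. In 12 Ty2 copies the 3′ LTR was covered further in 11 and equally in 1, with medians of 100% and 32.6%. In both Ty3 copies the 5′ LTR was covered further, at 92.1% against 0% in YGRWTy3-1 and 67.6% against 61.8% in YILWTy3-1. Among the copies without a tRNA gene within 1 kb, the 3′ LTR was covered further in 3 of 7 Ty1 copies, less far in 1, and further in 4 of 4 Ty2 copies. LTRs outside full-length elements, mostly left behind when an element recombined out, had a peak in 115 of 284 cases (40.5%), against 11.9% of nuclear tiles of 300 bp. By family this was 38.1% of 202 Ty1 LTRs, 60% of 10 Ty2, 73.0% of 37 Ty3, 17.2% of 29 Ty4 and 0 of 6 Ty5 LTRs. Ty4 and Ty5 were the lowest, but the Ty4 share was above that of the tiles and the Ty5 LTRs were few. An overlap of at least 1 bp counted here, wherever the summit lay. How many of these peaks belong to nearby tRNA genes, of which 75.6% carried a peak, was not tested. Protein-coding genes outside the elements had a peak in 994 of 5906 cases (16.8%).

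Peaks of the 2 Ty3 copies overlapped at 2 places, but their summits lay close together only at the place in pol. YGRWTy3-1 on chromosome VII had a peak of 1.99-fold with the summit at 71 bp in its 5′ LTR, 86 bp from the tRNA gene YNCG0030C, and a peak of 2.79-fold with the summit at 1870 bp in pol. YILWTy3-1 had peaks of 1.68-fold at 570 bp in gag and of 3.31-fold at 1923 bp in pol, and a further one of 2.07-fold whose summit lay past its 3′ end in the tRNA gene YNCI0005W. The pol summits are at positions 1870 and 1845 of the aligned copy, so they recurred within 25 bp. Both copies were covered at positions 111 to 313 and 1718 to 2005, and 76.4% of the bases were covered in neither. The first of these stretches, in the 5′ LTR, lay between the summits at 71 bp in YGRWTy3-1 and 570 bp in YILWTy3-1.

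Ty3 was also the only family with G4 motifs, sequences of 4 runs of at least 3 G with loops of 1 to 25 bases, counted on both strands. All 8 motif regions in full-length elements were in Ty3, 3 in YGRWTy3-1 and 5 in YILWTy3-1, and none was in Ty1, Ty2, Ty4 or Ty5. The elements thus held 2.74 motif regions per 100 kb, against 5.25 over the nuclear chromosomes. In YILWTy3-1 a motif region of 132 bp at positions 1778 to 1909 from its 5′ end ended 14 bp from the pol summit, under the 3.31-fold peak, and another one was under its gag peak, 81 bp from the summit. In YGRWTy3-1 no motif was under a peak, and the nearest lay 338 bp from a summit, although its pol peak was at the matching place. Of the 162 peaks with the summit in an element 2 (1.23%) overlapped a motif, against 135 of the 1365 other nuclear peaks (9.89%).

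Little of the elements was unique sequence. Of all words of 64 bases, the read length, a median of 1.18% in Ty1 copies, 4.87% in Ty2, 37.3% in Ty3, 3.28% in Ty4 and 99.9% in Ty5 occurred once in the reference, against 96.6% outside the elements. The median word in a copy occurred 23 times in Ty1, 11 in Ty2, 2 in Ty3, 3 in Ty4 and 1 in Ty5. Cover was highest in Ty1, lower in Ty2, lower again in Ty3 and absent in Ty4 and Ty5. Ty4 thus had no peak with about as many copies of its words as Ty3. Median GC content was 37.5% in Ty1, 36.1% in Ty2, 40.5% in Ty3, 32.9% in Ty4 and 39.4% in Ty5. The part of word copies and of GC in the cover was not tested. Pooled over all copies of a family, bases under peaks were less unique than bases outside them. In Ty1, 1.94% of words were unique under peaks and 7.67% outside them, and in Ty2 3.21% and 6.55%. These pools include the 3 Ty1 copies of divergent gag and the little covered YBLWTy2-1, and were not computed without them. GC was 33.8% under peaks and 37.0% outside them in Ty2, and 37.5% under peaks and 37.2% outside them in Ty1.

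**Figure D5:**
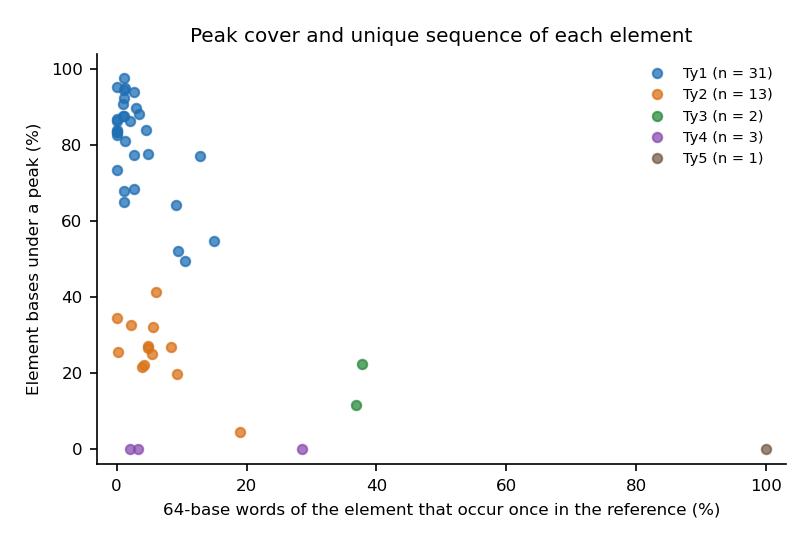
Percent of the bases of an element under a peak against the percent of its 64-base words that occur once in the reference, with a point for each of the 50 elements. Ty1 lies between 49.5% and 97.7% cover at few unique words, and the 3 Ty4 copies lie at 0% cover with between 2.01% and 28.6% unique words.

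Across the 31 Ty1 copies, the covered share fell with the share of unique words, at a Pearson r of -0.67 and a Spearman rho of -0.39. The copies share reads and sequence, so these are descriptions. In the 28 copies left without the 3 of divergent gag, r was -0.34 and rho -0.18. In the 13 Ty2 copies r was -0.70 and rho -0.33, but r was -0.088 without the 2 copies farthest from the median, YBLWTy2-1 among them with 18.9% unique words and 4.53% cover. Where the reads of a repeated sequence came from cannot be told apart, since near-identical copies share them, and how much of the cover in Ty1 belongs to any single copy was not tested.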

How the data were processed

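Per the labels and methods, the authors aligned 64 bp reads to sacCer3 (the R64 assembly) with Bowtie2 and called narrow peaks with MACS2 on all libraries together, IP against input. The reported command names 1 input library among the IP files and 1 IP library among the controls, and IP against input was assumed here. How reads with several matches were placed is not given in the sources used here. The header of the deposited list names other columns than it holds, so columns were read by position. The authors' MACS run made the fold enrichment (a ratio with 1 added to both terms) and the −log10 p-value and q-value. From the fold and p, IP fragments and background were solved, whole within 0.05 for 100% of peaks. Peaks and elements were intersected (at least 1 bp), parts were transferred by alignment (MAFFT 7.526), and words, GC and motifs were counted in R64 (Python 3.11.15, numpy 2.4.6). Functions were tested on simulated data. Named are all Ty3, Ty4 and Ty5 elements, the 10 with the highest summits, those with the most or no peaks and the genes under their summits. The members and lists were chosen with earlier results of these data known. Elements named beyond this rule were chosen after their values were seen.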

Additional observations from a re-analysis of the deposited data

How the results depend on the processing

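Of 59 alternatives, 39 stayed within 1.5 times a count, or within the 95% binomial interval of a median (2.04 to 2.16 for the fold), and 20 moved further. That interval treats peaks as independent, though copies share sequence and may share reads, and it measures no spread between replicates. With peaks of 3-fold or more, 2 elements (1 Ty1 and 0 Ty2) and 2 peaks were left, with a median fold of 6.0. With peaks of 2-fold or more, there were 111 peaks at elements with a median fold of 2.27, against 178 and 2.09, and 15 summits in LTRs, 11 in gag and 74 in pol, against 30, 27 and 105. Merging peaks closer than 300 bp gave 92 peaks with a median fold of 2.28. Leaving out the elements with a tRNA gene within 1 kb left 12 elements, of which 11 had a peak (7 of 7 Ty1 and 4 of 4 Ty2), with 35 peaks and 8 summits in LTRs, 5 in gag and 21 in pol, so that these fell with the number of elements. The share of unique words at summits was 0.874% with words of 36 bases and 4.68% with words of 100 bases, against 2.04%.

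No paired analysis was possible because the peak list, the only file analysed here, gives no value per library. The reads of single libraries were not analysed, so no library was left out and no spread between replicates is given. The elements named are places in the S288C reference, and the copies of W303 were not analysed here.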
